A study of Mus musculus with 6 samples.

Results

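A set of 9 genes, each assigned to the naive or the primed state of pluripotency, was examined in mouse embryonic stem cells (mESCs). The mark studied was acetylation of lysine 56 of histone H3 (H3K56ac). The 7 naive factors were *Tfcp2l1*, *Tbx3*, *Prdm14*, *Sall4*, *Zfp42*, *Nr5a2* and *Utf1*, and the 2 primed factors were *Otx2* and *Zic2*. The locus of a gene was its body with 50 kb on either side, and every H3K56ac peak with a base in a locus was taken. This gave 23 of the 11106 peaks of the set, 19 in naive and 4 in primed loci, for 9 of 21938 protein-coding genes. The rule named the genes and used no value of a peak.

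The chromatin came from V6.5, a single mESC line kept undifferentiated on feeder cells in medium with serum and leukemia inhibitory factor (LIF), and was studied by ChIP-seq. All cells had been infected with lentivirus and selected with puromycin. Scramble cells expressed a control shRNA and *Sirt6* KD cells one that targets *Sirt6*, whose product removes the acetyl group from this lysine. Each treatment had 2 H3K56ac libraries and 1 input DNA library, 6 libraries in all.

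The values available were the start and end positions of 1 merged peak set on the mm10 build. The set did not tell from which library or group a peak came, and it held no peak height. The read depth behind a peak is therefore unknown. The Scramble and *Sirt6* KD groups could not be compared, no value had a replicate, and no test was made. A promoter peak was any peak with a base within 1 kb of an annotated transcription start site (TSS) of the gene. By this definition 8 of 8 markers of embryonic stem cells had a promoter peak and 0 of 12 markers of the fibroblasts used as feeders had one. Over all protein-coding genes the share was 35.7%. It was 14.7% where the observed to expected CpG ratio around the 5′ end was 0.6 or less. This held for all but 2 of the stem cell markers and all but 1 of the fibroblast markers. The 0 of 12 is therefore not far from the share of such genes.

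Naive pluripotency is the state of the preimplantation epiblast, and mESCs in LIF resemble it. Primed pluripotency follows after implantation, when the enhancers in use change and lineage factors become active. In the naive state, POU5F1 (OCT4), SOX2 and NANOG work together with auxiliary transcription factors that vary in their binding sites and partners, and LIF acts through STAT3 on several of them. OTX2 and ZIC2 are known for steering enhancers during the exit from this state. H3K56ac lies on the core of the nucleosome, close to where DNA enters and leaves it, and is found at active promoters and enhancers.

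The DNA just upstream of a gene from each group is shown as an example, and *Zfp42* does not stand for all naive factors. The 250 bp before the 5′ end of the gene are shown in the direction of transcription, with CpG dinucleotides in capitals, because the share of genes with a promoter peak rose with CpG content across the genome. Among the naive factors, a peak also crossed the 5′ end at *Tfcp2l1* and *Tbx3*. At *Sall4*, *Nr5a2* and *Utf1* the nearest peak began 779, 1953 and 296 bp downstream of it. At *Prdm14* the peak stopped 867 bp upstream, so none of these peaks reached the stretch. The stretch of *Zfp42* (GRCm38, chr8:43306981-43307230, minus strand) lay wholly inside a peak, whereas that of *Zic2* (chr14:122475185-122475434, plus strand) had 0 bp in a peak.
*Zfp42*: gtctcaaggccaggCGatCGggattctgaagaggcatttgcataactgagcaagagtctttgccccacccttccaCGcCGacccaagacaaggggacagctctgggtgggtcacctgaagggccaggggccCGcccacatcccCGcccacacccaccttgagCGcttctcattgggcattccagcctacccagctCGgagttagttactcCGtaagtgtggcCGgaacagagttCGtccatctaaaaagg
*Zic2*: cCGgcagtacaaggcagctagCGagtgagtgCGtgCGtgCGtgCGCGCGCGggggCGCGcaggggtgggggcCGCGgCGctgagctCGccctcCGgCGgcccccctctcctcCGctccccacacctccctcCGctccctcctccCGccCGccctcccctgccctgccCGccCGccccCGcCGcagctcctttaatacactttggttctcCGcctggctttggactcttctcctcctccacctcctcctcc
The *Zfp42* stretch held 11 CpG and that of *Zic2* held 26. Of this pair, the acetylated stretch was the one poorer in CpG. This order is not that of every pair. Around the 5′ end the observed to expected CpG ratio was 0.821 at *Tbx3* and 0.770 at *Otx2*.

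Each of the 7 naive factors carried a promoter peak and neither of the primed factors did. Among all 21938 protein-coding genes, 35.7% had a promoter peak. A promoter peak of at least 3 kb was found at 5 of 7 naive factors, namely *Tfcp2l1*, *Tbx3*, *Sall4*, *Zfp42* and *Nr5a2*, and at 0 of 2 primed factors, against 3.35% of all genes. A TSS lay inside a peak at the same 5 naive factors, against 25.0% of all genes. The remaining pair, *Prdm14* and *Utf1*, had a peak beside its TSS without covering it. Counted by start site, peaks covered 14 of the 24 annotated TSS of the naive factors and 0 of the 12 of the primed factors, against 18678 of the 93513 TSS of all genes. A rule on any base favors wide peaks. When the midpoint of the peak had to lie within 1 kb of a TSS, 2 of 7 naive factors kept a promoter peak, *Zfp42* and *Nr5a2*, against 33.9% of all genes. Under the midpoint rule the naive factors thus had no higher share than the genome.

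**Figure D1:**
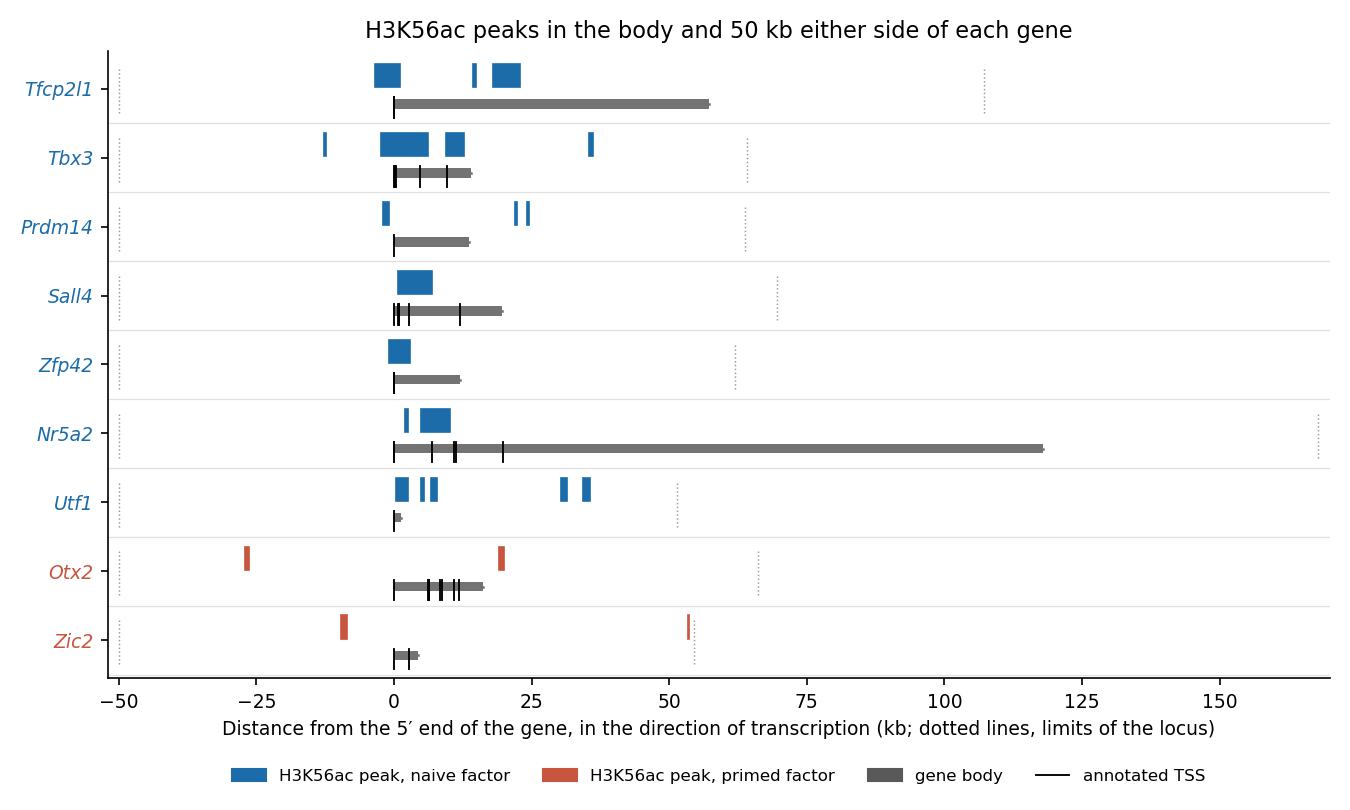
H3K56ac peaks in the 9 loci, drawn by distance from the 5′ end of the gene in kb, in the direction of transcription; colored boxes are peaks, grey bars gene bodies, black ticks annotated TSS and dotted lines the limits of a locus. Of the 7 boxes of at least 3 kb, all in naive loci, 6 are promoter peaks and 1 lies in an intron of *Tfcp2l1*, and the 4 peaks of *Otx2* and *Zic2* lie outside both genes.

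The widths of the widest promoter peaks spanned a wide range. They were 1046 bp at *Prdm14*, 2235 bp at *Utf1*, 3747 bp at *Zfp42*, 4641 bp at *Tfcp2l1*, 5162 bp at *Nr5a2*, 6157 bp at *Sall4* and 8440 bp at *Tbx3*. The median was 4641 bp, against 1348.5 bp (quartiles 765 and 2169 bp) over the 7836 genes with a promoter peak. The peak of *Tbx3* stood farthest out, since only 0.128% of these genes had one as wide. The shares as wide were 0.485% for *Sall4*, 1.30% for *Nr5a2*, 1.90% for *Tfcp2l1* and 4.01% for *Zfp42*. *Utf1*, at 23.0%, lay just above the upper quartile, and *Prdm14*, at 60.1%, between the quartiles. The 8 promoter peaks of the naive factors, *Tbx3* having 2, had a median width of 4194 bp, and their other 11 peaks had a median of 630 bp. Over the whole set, these medians were 1162 bp at promoters and 630 bp elsewhere. Away from promoters the naive median was that of the set.

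**Figure D2:**
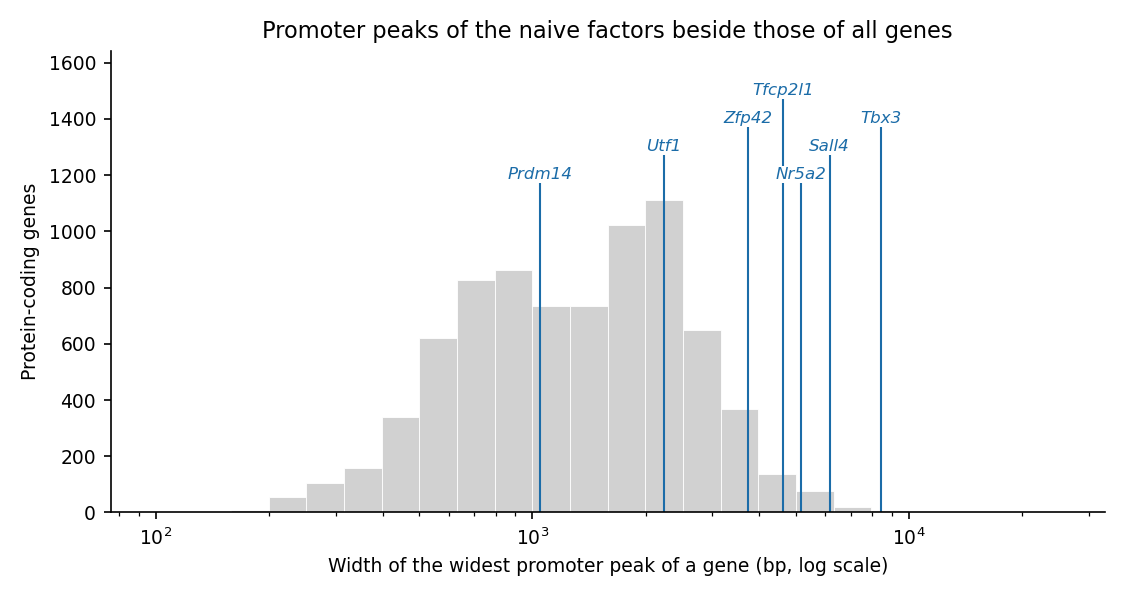
Widest promoter peak of each of the 7836 protein-coding genes that have one (grey bars, number of genes; x axis, width in bp on a log scale), with blue lines at the 7 naive factors. *Prdm14* and *Utf1* fall within the bulk, and the other 5 lie in the upper tail, from 3747 bp at *Zfp42* to 8440 bp at *Tbx3*.

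*Tfcp2l1* (ENSMUSG00000026380.10, chr1:118627945-118685168, plus strand) encodes a grainyhead-family activator that acts downstream of LIF and STAT3. Its locus held 3 peaks. The promoter peak (chr1:118624440-118629080) was 4641 bp wide and covered both annotated TSS. It was skewed to the upstream side, with 3505 bp or 75.5% of its length before the 5′ end and 1135 bp reached beyond it. The other peaks lay in intron 2 of the 15-exon transcript. One of 630 bp (chr1:118642233-118642862) was small and 42.5% repeat sequence. The other (chr1:118645977-118650882) was 4906 bp wide, wider than the promoter peak, and began 18032 bp downstream of the 5′ end. A width of this size was reached by 1.31% of all peaks. A start of the noncoding transcript *Gm28882* is annotated in this peak or within 1 kb of it. No further peak followed for 396554 bp.

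The intronic 4906-bp peak held matches to the site of TFCP2L1 itself, which is a pair of half-sites, CCAG and then CCAG or CCGG, with 6 bases in between. There were 5 such matches, a number reached in 8 of all 11106 peaks (0.0720%) and in 4 of the 759 peaks of at least 3 kb (0.527%). They are shown because the site of a factor recurred within its own gene, a feature singled out after the counts were seen. Capitals mark the 14 bases of the match, with 8 bases of flank, each written on the strand of the match.
site at chr1:118648146-118648159, minus strand: ggtgactcCCAGCCCAGCCCAGggagccaa
site at chr1:118648364-118648377, plus strand: cggacctcCCAGACTGCACCAGattccttg
site at chr1:118649100-118649113, plus strand: tcaatatcCCAGTAGTCTCCAGcaccactg
site at chr1:118649596-118649609, minus strand: ctgataagCCAGCAAACCCCAGggacctag
site at chr1:118650251-118650264, minus strand: ctggctggCCAGAGAGCCCCAGtgatctgt
A match in the reference sequence is a description of the letters, and binding was not measured.

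The promoter peak of *Tfcp2l1* held the only PRDM14-type match (GGTCTCTAA) and the only match to the site shared by ESRRB and NR5A2 (TCAAGGTCA) among the 23 peaks. Both fell in a stretch of 72 bp (chr1:118627449-118627520, minus strand), at 435 to 486 bp upstream of the 5′ end and 34 bp apart. Capitals mark the 2 matches, the PRDM14-type one first, and an OTX2-type match (GGATTA, on the other strand) overlaps it.
*Tfcp2l1* upstream stretch: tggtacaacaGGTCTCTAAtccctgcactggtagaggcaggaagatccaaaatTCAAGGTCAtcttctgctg
Among all peaks of at least 3 kb, 3.03% held the PRDM14-type letters and 14.2% the ESRRB and NR5A2 letters.

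*Tbx3* (ENSMUSG00000018604.18, chr5:119670669-119684724, plus strand), a T-box factor that sustains self-renewal, had the most acetylated bases of the 9 loci. Its 4 peaks summed to 13017 bp or 11.4% of the locus. The promoter peak (chr5:119668352-119676791, 8440 bp) reached from 2317 bp upstream to 6122 bp downstream of the 5′ end, covered 4 of the 5 TSS and took in 43.6% of the gene. Only 0.126% of all peaks were as wide. A second peak of 3245 bp (chr5:119680114-119683358) lay 3322 bp further on, with its midpoint in intron 6 of the 7-exon transcript. It covered an internal TSS of a noncoding transcript and another 23.1% of the gene. Small peaks flanked the gene, 494 bp wide at 12310 bp upstream, within the antisense gene *Tbx3os1*, and 838 bp wide at 21324 bp past the gene end. This antisense gene also has an annotated start in the promoter peak or within 1 kb of it. ChIP-seq peaks carry no strand, so the mark cannot be assigned to either gene.

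*Prdm14* (ENSMUSG00000042414.7, chr1:13113457-13127163, minus strand) encodes a zinc finger protein that keeps FGF signaling and DNA methylation low. It was the naive factor with the fewest bases inside peaks, 3 peaks of 1668 bp in sum or 1.47% of its locus. Its promoter peak (chr1:13128030-13129075) was 1046 bp wide and wholly upstream of the single TSS. Its near edge was 867 bp away, so it passed the 1 kb limit by that edge. The other peaks, 321 and 301 bp wide, lay 8276 and 10489 bp past the gene end and 1892 bp from each other. Nearly all peaks of the set were wider, since 91.0% and 91.9% reached these widths.

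*Sall4* (ENSMUSG00000027547.17, chr2:168748332-168767943, minus strand), a zinc finger partner of the core network, had a single but wide peak. It measured 6157 bp (chr2:168761008-168767164), a width reached by 0.522% of all peaks, and made up 5.15% of the locus. The peak lay wholly inside the gene. It began 779 bp downstream of the outermost 5′ end, which belongs to a noncoding transcript, and ended 6935 bp downstream of it, with its midpoint in intron 1. It covered 3 of 6 TSS and 31.4% of the gene. The nearest further peaks were 235366 and 89747 bp away.

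*Zfp42* (ENSMUSG00000051176.6, chr8:43295063-43306980, minus strand) encodes REX1, a relative of YY1 and a common marker of the naive state. It too had a single peak in its locus (chr8:43304130-43307876), 3747 bp wide, from 896 bp upstream to 2850 bp downstream of the 5′ end. It covered all 3 annotated TSS and 23.9% of the gene. Of the 23 peaks it was the farthest from any other peak, with the next ones 122447 and 1626834 bp away. No other protein-coding gene overlapped the locus.

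*Nr5a2* (ENSMUSG00000026398.14, chr1:136842571-136960448, minus strand) encodes the nuclear receptor LRH-1, which shares its DNA site with ESRRB. Its outermost start was not in a peak. The wide peak (chr1:136950301-136955462, 5162 bp) lay from 4986 to 10147 bp downstream of the 5′ end, with its midpoint in intron 1 of the 9-exon transcript. It included exon 2 of that transcript and the internal TSS of a coding transcript at position 136953630. A peak of 617 bp (chr1:136957879-136958495) lay between the outer and the inner start, 2416 bp from the wide peak. With only the 5′ end counted as the start, *Nr5a2* lost its promoter peak and 6 of 7 naive factors kept one, against 33.0% of all genes.

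*Utf1* (ENSMUSG00000047751.9, chr7:139943789-139945112, plus strand) encodes a chromatin-associated factor of undifferentiated cells. Its peak of 2235 bp (chr7:139944085-139946319) began 296 bp downstream of the single TSS, covered 77.6% of the gene and ran past its end, to 2530 bp from the TSS. With 5 peaks the locus had the highest count of the 9 at 50 kb of flank. The other 4, 593, 973, 976 and 1288 bp wide, lay 3610 to 32986 bp past the gene end. The last of them was at the promoters of *6430531B16Rik* and *Adam8*. It was the only one of the 19 peaks in naive loci within 1 kb of a TSS of another protein-coding gene. With 20 kb of flank *Utf1* had 3 peaks, as many as *Tfcp2l1*, *Tbx3* and *Prdm14*. With peaks up to 3 kb apart joined it had 2, against 4 at *Tbx3* and 3 at *Tfcp2l1*.

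**Figure D3:**
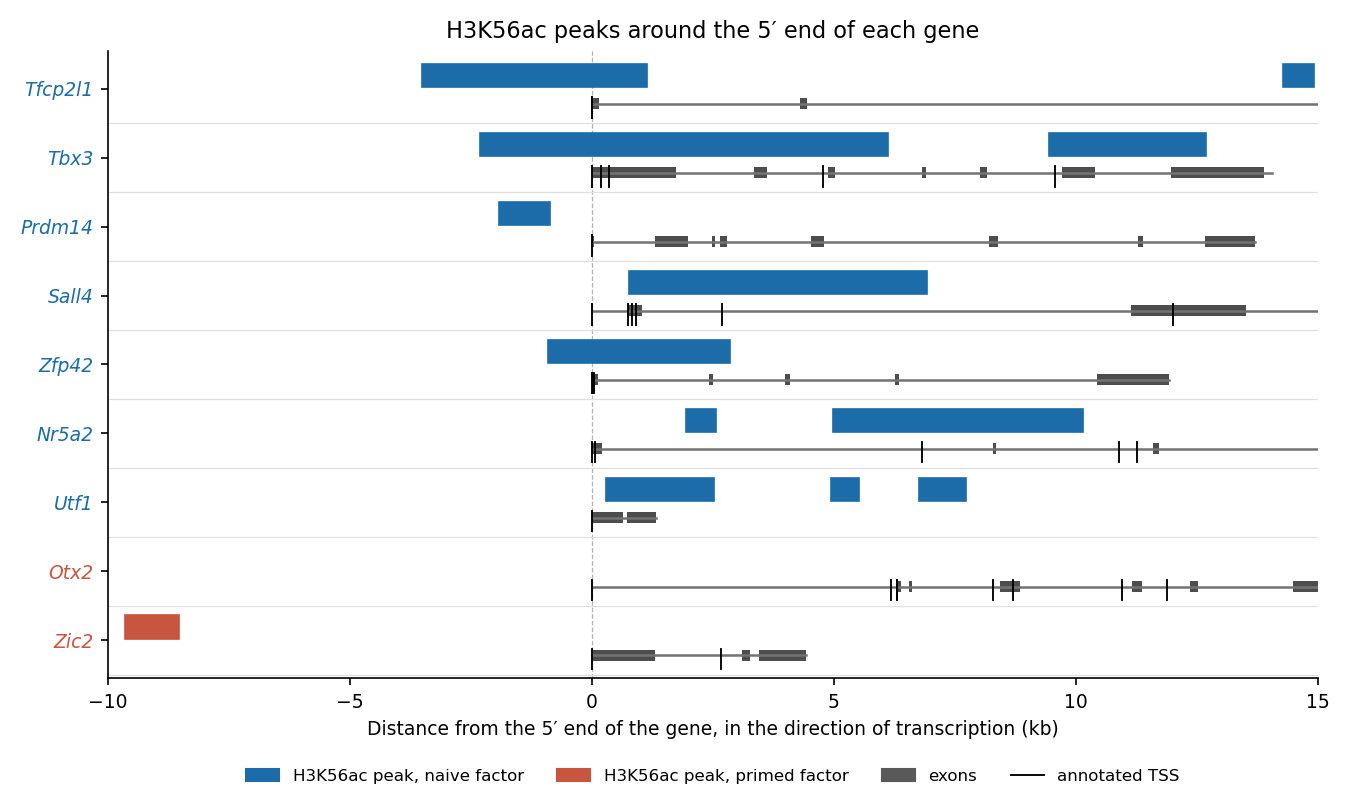
The same peaks from 10 kb upstream to 15 kb downstream of each 5′ end (x axis, kb; colored boxes, peaks; dark boxes, exons; black ticks, TSS; dashed line, 5′ end). Peaks cross the 5′ end at *Tfcp2l1*, *Tbx3* and *Zfp42*, lie beside or downstream of it at the other 4 naive factors, and are missing from *Otx2* in this window.

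*Otx2* (ENSMUSG00000021848.16, chr14:48657677-48673819, minus strand) encodes a homeobox factor that moves POU5F1 to new enhancers during priming. It has 10 annotated TSS, and the shortest distance from any of them to a peak was 7234 bp. Its 2 peaks were 821 bp (chr14:48653878-48654698), at 2979 bp past the gene end, and 748 bp (chr14:48700091-48700838), at 26272 bp upstream, within the noncoding gene *Otx2os1*. Both were near or below the median width of the set, 913.5 bp.

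*Zic2* (ENSMUSG00000061524.8, chr14:122475435-122479852, plus strand) encodes a zinc finger factor of the epiblast and neural lineage. Its nearest peak, 1122 bp wide (chr14:122465782-122466903), lay 8532 bp upstream and belonged by position to the neighboring paralog *Zic5*, whose TSS was 105 bp away. The other peak (chr14:122528854-122529084) was 231 bp wide, 49.8% repeat sequence, and 49002 bp past the gene end, just inside the locus. Neither gene of the primed pair had a peak in its body.

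The loci of both primed factors therefore belonged to those with a peak but none at the promoter, as did 27.3% of all genes, against 0 of 7 naive factors. At least 1 peak away from every other promoter was present in all 9 loci, against 41.2% of genes. Peak numbers overlapped between the groups, with 1 to 5 peaks per naive locus (median 3) and 2 in each primed locus, against a median of 1 over all genes. The acetylated bases did not overlap with 50 kb of flank. They ranged from 1668 to 13017 bp in naive loci (median 6065 bp) and were 1353 and 1569 bp in the primed ones, while the median gene had 990 bp (quartiles 0 and 3456 bp). The separation rested on *Prdm14* and was lost in 2 alternatives. With 100 kb of flank *Prdm14* had 1668 bp and *Zic2* 1959 bp, and with peaks of at least 500 bp alone *Prdm14* had 1046 bp, *Zic2* 1122 bp and *Otx2* 1569 bp. As a share of the locus, the naive values ran from 1.47% at *Prdm14* to 11.4% at *Tbx3* with a median of 5.15%. *Otx2* had 1.35% and *Zic2* 1.30%, so that *Prdm14* stood close to them. The median over all genes was 0.689%. Of the 7 naive loci, *Tbx3*, *Tfcp2l1* and *Utf1* were reached by the fewest genes in this share, 1.37%, 6.58% and 7.89% of genes, and *Prdm14* by the most, 38.7%.

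**Figure D4:**
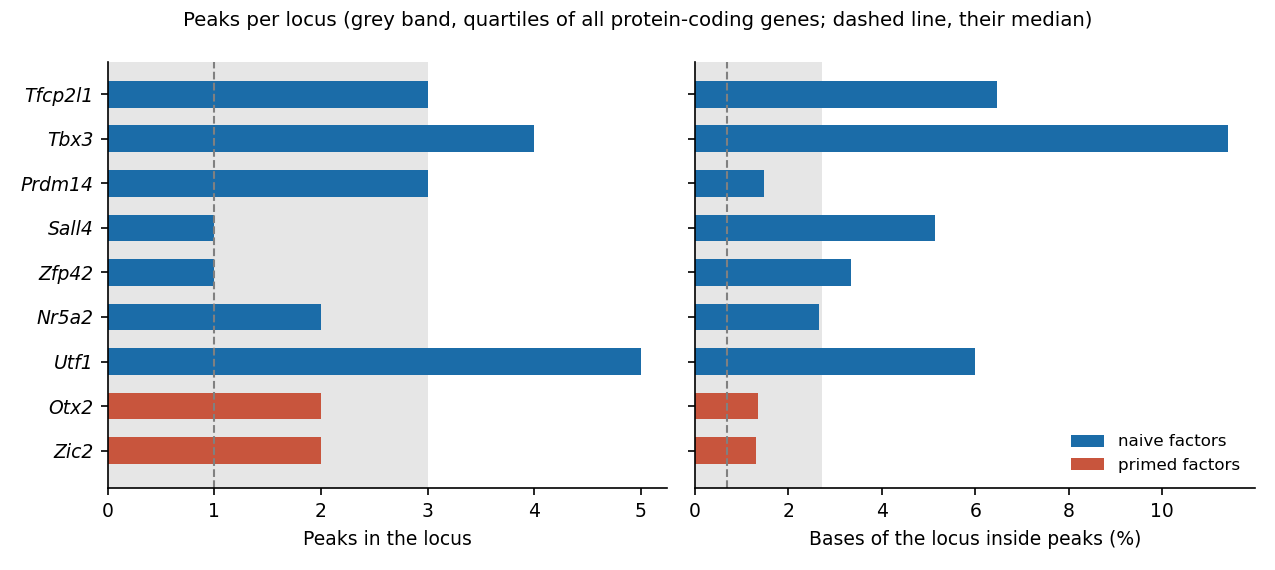
Number of peaks (left) and percent of the bases of the locus inside peaks (right) for each gene, in bars from 0; the grey band spans the quartiles of all 21938 protein-coding genes and the dashed line is their median. Peak counts of naive and primed factors overlap, while in covered bases *Prdm14* at 1.47% is nearest to *Otx2* and *Zic2*.

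Peaks of at least 3 kb made up 7 of the 19 peaks in naive loci (36.8%) and 0 of the 4 in primed loci, against 6.83% of all peaks. Of these 7, 6 were promoter peaks by the rule and the other was the intronic peak of *Tfcp2l1*. The 19 peaks comprised 8 at promoters, 3 in gene bodies, 7 downstream and 1 upstream. A gene-body peak more than 1 kb from every TSS of the gene occurred at 2 of 7 naive factors, *Tfcp2l1* and *Nr5a2*, and at neither primed factor, against 7.27% of all genes. The median GC content was 51.0% in peaks of naive loci, 44.0% in those of primed loci and 51.4% in all peaks.

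CpG content did not order these genes the way it ordered the genome. The observed to expected CpG ratio, taken from 500 bp upstream to 500 bp downstream of the 5′ end, was 0.124 at *Nr5a2*, 0.405 at *Sall4*, 0.503 at *Zfp42*, 0.504 at *Prdm14*, 0.584 at *Tfcp2l1*, 0.798 at *Utf1* and 0.821 at *Tbx3*. It was 0.770 at *Otx2* and 0.918 at *Zic2*. Among genes with a ratio over 0.6, 60.4% had a promoter peak, and of the 4 such genes here *Tbx3* and *Utf1* had one while *Otx2* and *Zic2* had none. Among genes at or below 0.6, 14.7% had a promoter peak, and the 5 naive factors of this kind all had one. At the ratio of *Zic2*, between 0.9 and 1, 68.4% of 1458 genes had a promoter peak. At that of *Nr5a2*, between 0.1 and 0.2, the share was 5.51% of 3214 genes. At *Nr5a2* the ratio describes the outer start, whereas the peak lay at an inner one. The window of the ratio also held no peak base at *Sall4* and *Prdm14*. The *Sall4* peak began 779 bp downstream of the 5′ end, which there belongs to a noncoding transcript, and the *Prdm14* peak lay 867 bp upstream. For these 3 genes the ratio therefore does not describe the DNA under the peak.

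**Figure D5:**
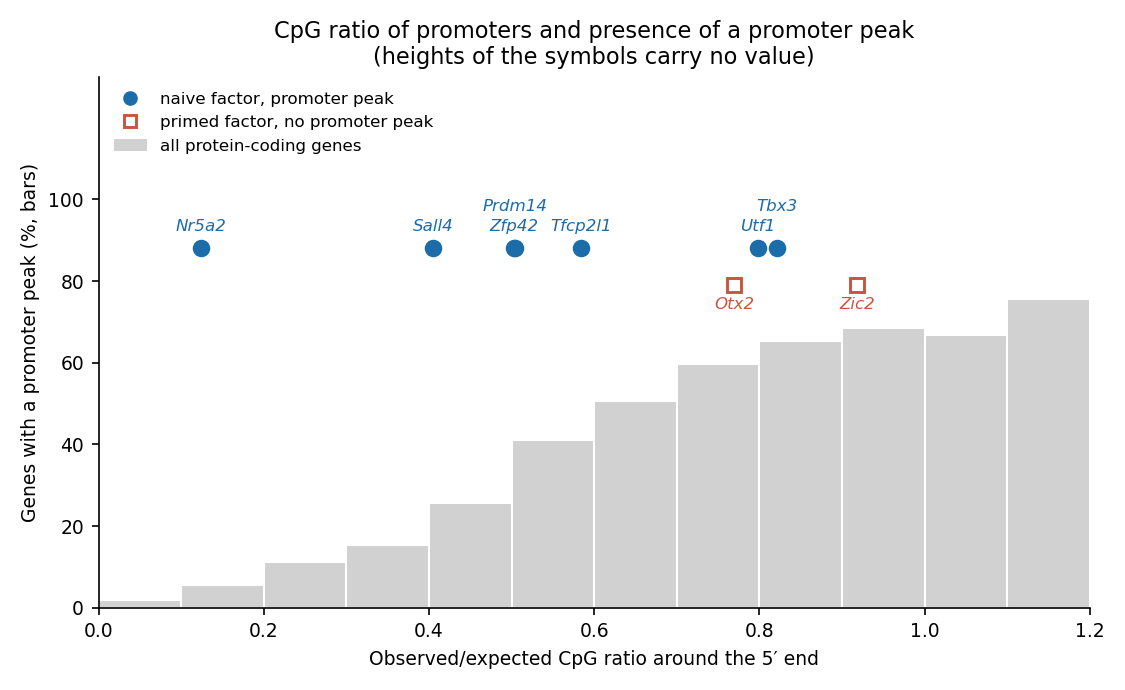
Percent of protein-coding genes with a promoter peak (grey bars) by the CpG ratio around the 5′ end (x axis), with the 9 genes placed by their own ratio; filled circles have a promoter peak, open squares have none, and the height of a symbol carries no value. The bars rise with the ratio, while the open squares of *Otx2* (0.770) and *Zic2* (0.918) lie to the right of 5 filled circles.

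The octamer bound by POU5F1 (ATTTGCAT) was found in 3 of the 7 wide peaks, against 19.0% of the 759 peaks of at least 3 kb. The peaks were the promoter peaks of *Tfcp2l1*, *Tbx3* and *Zfp42*, each with 1 match. The sites are given because POU5F1 is active in naive and primed cells alike. They lay at chr1:118625556-118625563 on the minus strand, chr5:119668678-119668685 on the plus strand and chr8:43307188-43307195 on the minus strand. Capitals mark the octamer.
*Tfcp2l1*, 2382 bp upstream of the 5′ end: tgtatgtgATTTGCATagacggga
*Tbx3*, 1984 bp upstream: gccagattATTTGCATgcaaagtc
*Zfp42*, 208 bp upstream: gaagaggcATTTGCATaactgagc
The *Zfp42* site is part of the promoter stretch printed above. All 3 matches were upstream of their gene, and none was in the central 400 bp of a peak.

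Within the central 400 bp, where peak width does not enter, 10 motifs were searched on both strands in the 23 peaks. For 6 of them there was no match, among them the octamer (in 1.50% of all peaks), the KLF site (GGGNGTGGC, 3.96%), the STAT3 site (TTCCNGGAA, 1.64%) and the T-box site (AGGTGTGA, 1.55%). The OTX2-type letters (GGATTA) were in 5 of 23 peaks, 3 in naive and 2 in primed loci, against 11.3% of all peaks. The primed matches were in 1 peak each of *Otx2* and *Zic2*. That of *Zic2* was in the 231-bp peak, which was 49.8% repeat sequence. Repeats were not left out of the motif counts. The ZIC-type letters (CCTGCTG) were in 1 peak, against 12.2%, the YY1-type letters (GCCATNTT) in 2, against 8.96%, and the TFCP2L1 pair in 3, against 7.55%. Per length, the whole peaks held 4.44 OTX2-type and 0.808 YY1-type matches per 10 kb, against 3.89 and 2.14 in all peaks. These counts are small, and no motif is singled out from them as particular to the loci.

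Other genes assigned to the naive or the primed state are given as counts. Their lists were chosen by known function, with earlier results of these data known. The naive-state list is not confined to that state, since it includes *Pou5f1*, whose product is active in naive and primed cells alike. It also shares *Pou5f1*, *Sox2*, *Nanog* and *Esrrb* with the markers of embryonic stem cells. A promoter peak was present at 11 of 12 other naive-state genes and at least 3 kb wide at 7. The widest were at *Sox2* (9909 bp), *Esrrb* (7226 bp), *Pou5f1* (6152 bp) and *Fgf4* (5310 bp), so that of the naive factors *Tbx3* and *Sall4* reached widths of this order. *Dppa3*, a germ cell and oocyte factor, lacked one and had its nearest peak 16043 bp from the TSS. Of 12 other primed-state genes 2 had a promoter peak, among them *Zic5* with the peak described above, although 9 of the 12 were CpG-rich. *Zic5* also stands in the list of paralogs.

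The families of the factors were compared through their paralogs. Of 31 paralogs of the 9 genes 11 had a promoter peak, or 35.5%, close to the 35.7% of all genes. The median widest promoter peak was 1026 bp. Next to *Tfcp2l1*, the broadly expressed relatives *Tfcp2* and *Ubp1* had peaks of 596 and 1261 bp. Next to *Zfp42*, its relative *Yy1* had one of 1026 bp. Next to *Tbx3*, none of *Tbx1*, *Tbx2*, *Tbx4*, *Tbx5* and *Tbx6* had a promoter peak. *Nr5a1*, the steroidogenic relative of *Nr5a2*, had none, nor did *Otx1* and *Crx*, the relatives of *Otx2*. In the PRDM family the peak of *Prdm14* was not the widest, since *Prdm9*, a meiotic factor, had one of 1649 bp. Next to *Sall4*, its relative *Sall1* had a promoter peak of 2922 bp, while *Sall2* and *Sall3* had none.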

How the data were processed

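V6.5 mESCs with a scrambled or a *Sirt6* shRNA were used for ChIP with an antibody against H3K56ac, and single-end libraries were sequenced on an Illumina instrument. The 6 libraries were grouped by their titles. Reads were trimmed by the authors with Trim Galore. The authors aligned them to mm10 with bowtie, keeping reads with 1 reportable location, and marked duplicates with Picard. Peaks came from MACS2, those in blacklisted regions were dropped, and the GenomicRanges package united overlapping ones. Reads from identical repeats are lost this way, and uniting peaks can widen them and conceals their library of origin. Neighboring peaks in the file were at least 1000 bp apart, a gap that uniting overlapping peaks alone need not leave. Whether nearer peaks were also joined is not given in the sources used here, so a printed width can include bases between peaks.

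The deposited file held peak positions alone, since the remaining columns (name, score, strand) were constant. It gives no read depth, so precision could not be calculated. The authors' read counts per peak were not used here. Printed positions count from 1. No peak ran past the end of a GRCm38 chromosome, and genes and TSS came from GENCODE M21 and sequence from the RefSeq copy of GRCm38. Promoters, loci, the CpG ratio and motif windows were defined as given with the results, and every gene was treated as the 9 were. Exon and intron numbers refer to the longest coding transcript. A 400-bp window extends past peaks narrower than that.

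The genes and lists were chosen with earlier results of these data known. All 9 genes are named, with other genes at their peaks and, from the lists, those with or without a promoter peak. Some items of the lists and sequences are not reported here. The results are descriptions without tests. Alternatives covered the flank, the promoter rule, the TSS set, peak width, joining of near peaks and the motif window. Calculations used Python 3.11.15 with numpy 2.4.6 and pandas 2.3.3. The overlap, joining and motif search were tested on simulated data.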

Additional observations from a re-analysis of the deposited data

How the results depend on the processing

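Of 57 alternatives, 50 left a value within 1.5 times the reported one or within its counting interval. Outside the motif shares it was 33 of 37. For the motif shares the interval over 23 peaks was broad. The octamer thus counted as unmoved at 13.0% of whole peaks in place of 0%. Such an interval covers counting alone, and many of the 23 peaks are neighbors in the same locus. With the midpoint within 1 kb of a TSS, 2 naive factors had a promoter peak in place of 7, against 33.9% of all genes. With a flank of 20 kb the primed loci held 2 peaks in place of 4, and their median of acetylated bases was 971.5 bp in place of 1461 bp. Without peaks at other promoters that median was 900 bp. The other moves concerned motif shares: the OTX2-type letters were in 43.5% of the 23 peaks in a window of 1000 bp and in 60.9% of whole peaks in place of 21.7%, and the ZIC-type letters in 26.1% of whole peaks in place of 4.35%. The primed factors had 0 promoter peaks under each of the 5 promoter alternatives. The acetylated bases of the naive and primed loci overlapped with a flank of 100 kb and with peaks of at least 500 bp alone. The naive loci held 14 to 23 peaks, and their median widest promoter peak was 4194 to 6157 bp. No paired analysis was possible because peak positions carry no replicate, and for the same reason no replicate could be left out and no stricter peak score applied. A median promoter peak width for the primed factors could not be given.

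The file gives no depth, so signal below the calling threshold and the union of narrower peaks from different libraries cannot be told from these positions. The rule on any base lets wide peaks pass more easily. With 7 and 2 genes, differences between the groups are descriptions of these genes.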

Other observations

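Among the paralogs, the locus of *Sall1*, a zinc finger relative of *Sall4*, held 12 peaks that made up 17.8% of its length. This was more than in any of the 9 loci, where *Utf1* had 5 peaks and *Tbx3* 11.4%, although the promoter peak of *Sall1* was 2922 bp wide against 6157 bp at *Sall4*. *Sall1* was singled out after its values were seen.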
